A study of Mus musculus with 96 samples.

Results

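The livers described here came from low-fat-fed male offspring of mothers kept on an ordinary light schedule, sampled at 4 times of day. They are 12 of the 96 RNA-seq libraries of a mouse study of maternal circadian rhythms in pregnancy, chosen by their labels (offspring, control mother, low-fat diet), with 3 replicates at each of ZT0, ZT6, ZT12 and ZT18. ZT is Zeitgeber time, counted in hours from lights-on. The mothers were C57BL/6J mice on 12 h of light and 12 h of dark in pregnancy. Their sons ate a low-fat diet ad libitum from 4 weeks of age for 12 weeks, and livers were taken every 6 h. Poly(A) RNA of whole liver was sequenced from stranded TruSeq libraries. The labels do not say that the replicates were separate animals, so the p-values measure only the spread between these samples. The comparison asked which liver genes differ by time of day in the group with neither the light shift in pregnancy nor the high-fat diet.

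Daily time in the liver is kept by a feedback loop in which BMAL1 (gene Arntl) with CLOCK or NPAS2 activates genes through E-box sequences, and the PER and CRY proteins that result repress them. REV-ERB receptors (Nr1d1, Nr1d2) repress Arntl and its relatives, and ROR receptors activate them. Mice eat mostly at night, and liver genes for lipid synthesis, glycogen storage and amino acid use respond both to this clock and to feeding hormones.

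Levels are FPKM (sequenced fragments per kilobase of transcript, relative to library size), rescaled within the 12 libraries, and listed from replicate 1 to 3. The deposited FPKM values summed to between 589756 and 676185 per library. The read depth behind them is unknown, so no counting error could be attached. ZT6 replicates 2 and 3 were near-copies. The median absolute deviation of their log2 ratio over abundant genes, scaled like an SD, was 0.0346. It was 0.179 to 0.55 in the 11 other same-time pairs. In replicates 2 and 3 this spread fell from 0.163 in the least to 0.0362 in the most abundant group of genes. Between replicates 1 and 2 it was 0.463 and 0.445 in those groups. Sampling noise itself could not be computed without depth. As ZT6 replicates 2 and 3 may be 1 library, both were counted as 1 sample and n = 2 at ZT6, with n = 3 at the other times. ZT0 replicate 2 stood apart, with a median correlation with the other libraries of 0.937 where the rest had 0.966 to 0.978. Its 12 pericentral hepatocyte markers summed to 541 FPKM against 2672 to 6554 elsewhere, and its 8 cholangiocyte markers to 201 FPKM against at most 82.1. Hepatocyte identity markers (15 genes such as Alb) summed to between 46000 and 67480 FPKM, and 6 of 11 exocrine pancreas markers and 2 of 6 skeletal muscle markers were at 0 in every library. In bulk liver, fewer cells of a type and less RNA per cell cannot be told apart.

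Time of day altered 454 of 10026 tested genes (4.53%) at a limma F test with Benjamini-Hochberg adjusted p under 0.05, and 2790 genes had an unadjusted p below that value. A gene's peak is the time of its highest mean and its trough that of its lowest. Of the called genes, 121 peaked at ZT0 (1.21% of tested genes), 84 at ZT6 (0.838%), 131 at ZT12 (1.31%) and 118 at ZT18 (1.18%). The most common pattern was a 12 h gap between peak and trough, seen in 319 called genes (70.3%) against 48.7% of all tested genes. It included 109 genes highest at ZT0 and lowest at ZT12, 89 of the reverse order, 72 highest at ZT18 and lowest at ZT6, and 49 of the reverse order. The median peak-to-trough difference of called genes was 0.97 on the log2(FPKM + 1) scale, against 0.39 for all tested genes. Folds below are on this scale, which understates the change of genes near 0.

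**Figure D1:**
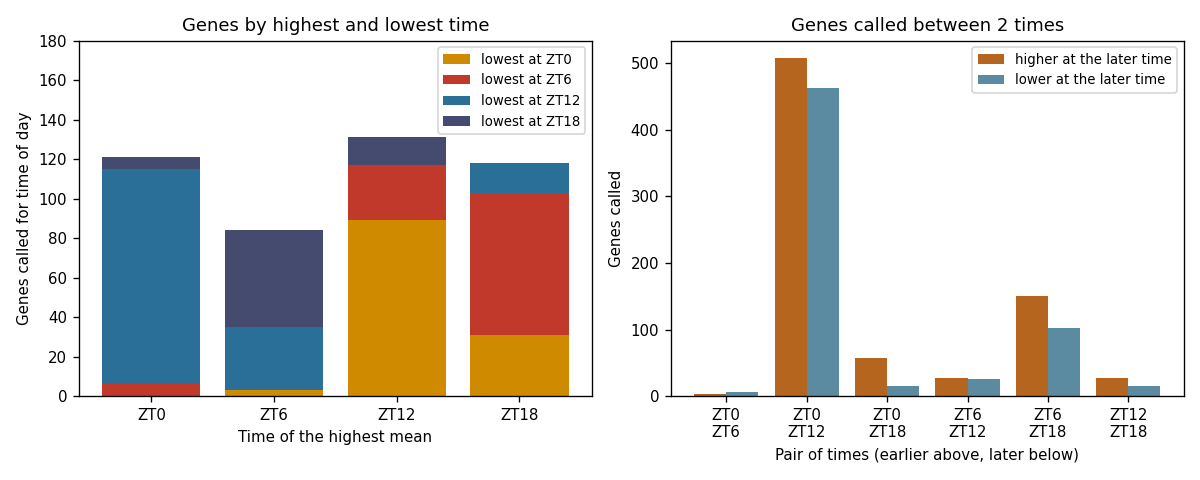
Left, number of genes called by the limma F test (y axis) by the time of their highest mean (x axis), stacked by the time of their lowest mean. Right, genes called in each pair of times (y axis), split into those higher and lower at the later time, where ZT0 against ZT12 has the tallest bars, at 508 and 462.

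The size of this count rested on single libraries, so the genes that stayed called are listed first. With the 12 libraries taken as separate samples, as in the first plan, 1454 genes were called (14.4%), among them all 454, of which 449 kept their peak time. The count was 504 without ZT0 replicate 2. It was 800 without ZT0 replicate 1, 283 without ZT0 replicate 3 and 265 without ZT6 replicate 1. Leaving out a ZT12 replicate gave 128, 103 and 125 genes, and leaving out a ZT18 replicate gave 225, 208 and 139. Of the 81 named genes that were called, 31 stayed called in every such fit in which they were tested, and no named gene changed direction under any setting. They included Arntl, Npas2, Nr1d1, Nr1d2, Dbp, Tef and Per2 of the clock, and Asl, Casp6, Cbs, Chka, Cml5, Crot, Cyp2a5, Eif4ebp3, Eps8l2, Gys2, Hamp2, Hsp90aa1, Hspb1, Lpin1, Nampt, Por, Spon2, Sult1d1, Upp2, Usp2 and Wee1. The other called genes of the naming rule each lost its call without at least 1 library. Npas2 reached 1 FPKM only in the 3 ZT0 libraries, so it was tested in 9 of the 12 fits. It was not tested in any fit that left out a ZT0 library.

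The pairs 12 h apart come first. Between ZT0 and ZT12, 970 genes differed (9.67%), 508 higher at ZT12 (5.07%) and 462 lower (4.61%). Without ZT0 replicate 2 254 were higher and 331 lower. On the values as deposited, which place the median gene 0.14 log2 lower at ZT12 than at ZT0 against 0.03 higher after rescaling, 183 were higher and 626 lower. Between ZT6 and ZT18, 253 genes differed (2.52%), 150 higher at ZT18 (1.5%) and 103 lower (1.03%). The deposited values gave 39 higher and 120 lower there, with the median gene 0.14 log2 lower at ZT18.

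The pairs 6 h apart follow, with only 2 samples at ZT6. ZT0 and ZT18 differed at 73 genes (0.728%), 58 higher at ZT18 (0.578%) and 15 lower (0.15%), a split that turned to 36 and 205 on the deposited values, where this pair had more calls than ZT6 against ZT18. ZT6 and ZT12 differed at 53 genes (0.529%), 27 higher at ZT12 (0.269%) and 26 lower (0.259%). ZT12 and ZT18 differed at 44 genes (0.439%), 28 higher at ZT18 (0.279%) and 16 lower (0.16%), against 6 and 19 on the deposited values. ZT0 and ZT6 differed at 10 genes (0.0997%), 3 higher at ZT6 (0.0299%) and 7 lower (0.0698%). The ZT6 samples were unlike each other: at 662 of the 970 genes that differed between ZT0 and ZT12 (68.3%), ZT6 replicate 1 lay nearer the ZT12 side than the mean of replicates 2 and 3. The median gene stood 50.6% of the way from the ZT0 to the ZT12 mean in replicate 1 and 34.2% of the way in the other sample.

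Only 9 called genes differed from all 3 other times by adjusted p in every pairwise contrast, and they were singled out after their values were seen. Npas2 and Loxl4 (a lysyl oxidase) were higher at ZT0 than at any other time. Both passed the filter of 1 FPKM in 3 samples only through the ZT0 libraries, so their place among the tested genes depended on that peak. Lpin1, Nampt, Slc2a4 (the insulin-responsive glucose transporter) and Zbtb16 stood so at ZT12, and Hspb1, Hsp90aa1 and G530011O06Rik at ZT18. No gene stood so at ZT6.

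Among the 19 core clock genes, 12 were called by time of day, and their peaks ran from the activators at ZT0 to the REV-ERB receptors and Dbp at ZT6, Tef, Per3 and Ciart at ZT12, and Per2 and Cry1 at ZT18. Both called activators, Arntl and Npas2, peaked at ZT0. Of 7 tested members of the period and cryptochrome list, 4 were called, as were both REV-ERB receptors and 3 of 4 members of the list holding Dbp, Tef, Hlf and Nfil3. These lists are textbook clock genes, so their counts are set beside 4.53% of all tested genes as a description.

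**Figure D2:**
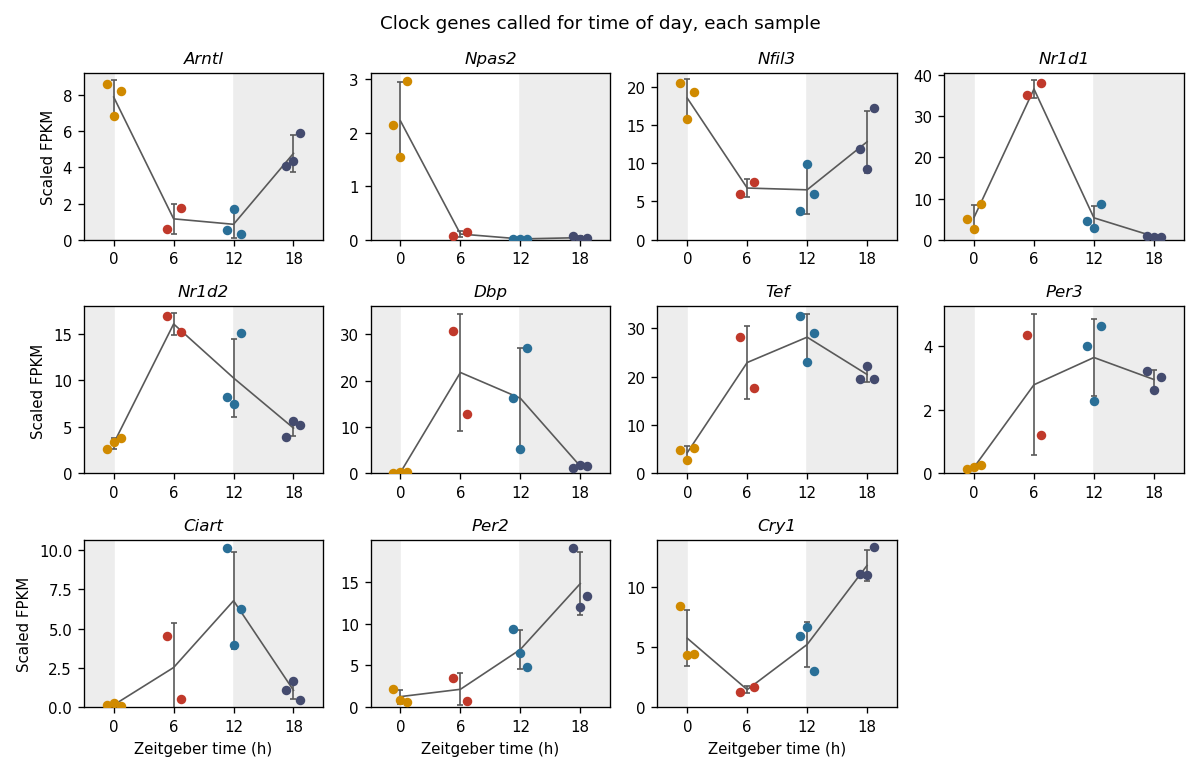
Rescaled FPKM (y axis, linear, 1 scale per gene) against Zeitgeber time in h (x axis) for 11 called clock genes, with grey for the dark phase. Points are the 11 samples, ZT6 replicates 2 and 3 being shown as their mean, and lines and bars are means and SD. Arntl is high at ZT0, Nr1d1 at ZT6, and Per2 and Cry1 at ZT18.

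The activators come first. Arntl (chr7:113207465-113314126 in mm10), which encodes BMAL1, had 8.62, 6.86 and 8.21 FPKM at ZT0 and 4.06, 4.35 and 5.93 at ZT18. It had 0.576, 1.73 and 1.74 at ZT6 and 0.558, 1.69 and 0.311 at ZT12. All ZT0 libraries lay above all others, and ZT6 and ZT12 overlapped. Its mean fell from 7.90 ± 0.92 FPKM (SD, n = 3) at ZT0 to 0.853 ± 0.74 (SD, n = 3) at ZT12, a log2 difference of 2.33 ± 0.28 (SE), with a limma adjusted p of 0.00879. Npas2 (chr1:39193731-39363236), the partner of BMAL1 that can stand in for CLOCK, had 2.14, 1.54 and 2.97 FPKM at ZT0 and at most 0.163 in every other library. That is 3.12-fold on the log2(FPKM + 1) scale, with a limma adjusted p of 0.00405. Clock itself, the other partner, missed the threshold at an adjusted p of 0.0593.

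The REV-ERB receptors, repressors of Arntl, peaked 6 h later. Nr1d1 (chr11:98767932-98775333), which encodes REV-ERB-alpha, had 35.2, 37.7 and 38.5 FPKM at ZT6. It had 5.05, 2.55 and 8.66 at ZT0, 4.43, 2.88 and 8.65 at ZT12, and 0.931, 0.76 and 0.691 at ZT18. ZT6 lay above and ZT18 below every other library, and ZT0 and ZT12 overlapped. The peak-to-trough difference was 4.39 ± 0.41 log2 (SE), or 21-fold, with a limma adjusted p of 0.00579. Nr1d2, which encodes REV-ERB-beta, was at 16.9, 15.8 and 14.7 FPKM at ZT6, followed by 8.22, 7.43 and 15.1 at ZT12, and its lowest values were 2.60, 3.34 and 3.78 at ZT0. It changed 4.05-fold (limma adjusted p = 0.0104), and 1 ZT12 library reached the ZT6 range.

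Of the repressors, Per2 had 19.1, 12 and 13.3 FPKM at ZT18 and 9.38, 6.51 and 4.84 at ZT12. It was 2.23, 0.904 and 0.689 at ZT0 and 3.49, 0.788 and 0.825 at ZT6. The ZT18 libraries exceeded all others, the order of the means was ZT18, ZT12, ZT6, ZT0, and the change was 7.11-fold (limma adjusted p = 0.0114). Cry1 was also highest at ZT18, with 11.1, 11 and 13.3 FPKM, and lowest at ZT6, with 1.27, 1.65 and 1.67 (5.19-fold, limma adjusted p = 0.0155). Per3 stood at 4, 2.29 and 4.66 FPKM at ZT12 and at no more than 0.269 at ZT0, where all its libraries lay below every other (3.79-fold, limma adjusted p = 0.0192). Ciart, which encodes a repressor of BMAL1, had 10.1, 3.98 and 6.22 FPKM at ZT12 against 0.123, 0.253 and 0.0555 at ZT0 (6.45-fold, limma adjusted p = 0.0329). 

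Per1 was not called (adjusted p = 0.0945), with 6.18, 3.90 and 4.37 FPKM at ZT12 and 0.714, 0.774 and 0.288 at ZT0. ZT6 replicate 1 was at 6.26 FPKM for Per1 where replicates 2 and 3 were at 0.841 and 0.823. The same library also led its time for Ciart (4.51 against 0.406 and 0.661), Per3 (4.37 against 1.24 and 1.21) and Dbp (30.6 against 12.1 and 13.7). Cry2 (adjusted p = 0.0679) and Bhlhe40 (0.122) were not called either, and Bhlhe41 stayed under the expression filter.

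The PAR bZIP factors, which carry clock time to output genes through D-box sequences, were low at ZT0. Dbp (chr7:45705088-45710203) had 0.156, 0.283 and 0.268 FPKM there. It reached 30.6, 12.1 and 13.7 at ZT6 and 16.3, 5.33 and 27.0 at ZT12, and was at 1.19, 1.94 and 1.57 at ZT18. ZT6 and ZT12 overlapped and stood above both other times, with a 17-fold change (limma adjusted p = 0.00879). Tef was at 4.88, 2.75 and 5.28 FPKM at ZT0 and between 17.6 and 32.5 in the 9 other libraries, peaking at ZT12 (5.58-fold, limma adjusted p = 0.00537). Hlf was not called (adjusted p = 0.109). Nfil3, whose protein E4BP4 competes for the D-box, peaked at ZT0 with 20.4, 15.7 and 19.3 FPKM and was lowest at ZT12 with 3.70, 9.94 and 5.91 (2.74-fold, limma adjusted p = 0.0479).

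Of 10 tested clock kinases, phosphatases and ubiquitin pathway genes, 1 was called (10% against 4.53% of all genes): Usp2, a deubiquitinase. It rose from 0.268, 0.617 and 0.317 FPKM at ZT0 to 15.1, 7.85 and 9.82 at ZT12, above every other library (8.29-fold, limma adjusted p = 0.00772).

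Promoter stretches of 5 clock genes and 1 output gene are printed here because their peak times differ while they carry the letters that clock proteins read. The window is RefSeq's 250 bases before and 50 from each start site in GRCm38.p6. It was found for 16 of the 19 core clock genes and 346 of the 454 called genes. Each stretch below is read 5′ to 3′ on the gene's strand, with the motif in capitals. The first group holds the E-box CACGTG in 3 genes of the clock and in Pfkfb3, a glycolytic regulator that also peaked at ZT12. Ciart lies at chr3:95882247-95882364 on the minus strand (3 matches), Cry1 at chr10:85185089-85185134 on the minus strand, Tef at chr15:81802526-81802571 on the plus strand, and Pfkfb3 at chr2:11502118-11502163 on the minus strand.
Ciart: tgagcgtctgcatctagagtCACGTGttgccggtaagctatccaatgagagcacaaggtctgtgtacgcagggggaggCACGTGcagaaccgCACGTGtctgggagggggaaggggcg
Cry1: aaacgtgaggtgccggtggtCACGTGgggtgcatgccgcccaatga
Tef: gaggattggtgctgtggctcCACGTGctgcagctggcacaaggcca
Pfkfb3: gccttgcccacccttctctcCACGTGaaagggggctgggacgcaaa
Per3 (chr4:151044796-151044890, minus strand) carries the D-box TTATGTAA at 2 places. Nfil3 (chr13:52981040-52981071, minus strand) carries the reverse complement of the REV-ERB and ROR element TAGGTCA, and it peaked at ZT0 like Arntl.
Per3: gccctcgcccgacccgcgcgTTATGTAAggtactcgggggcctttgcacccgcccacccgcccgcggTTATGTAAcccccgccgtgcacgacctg
Nfil3: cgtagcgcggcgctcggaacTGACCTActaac
On both strands of all 32851 promoters, 7.15% held the E-box CACGTG. The share among promoters of called genes was 4.51% for a ZT0 peak, 14.4% for ZT6, 11.7% for ZT12 and 16.0% for ZT18. TAGGTCA was in 2.61% of all promoters and in 5.26% of those of called genes with a ZT0 peak. Its share was 2.22% for a ZT6 peak, 1.56% for ZT12 and 2.52% for ZT18. The D-box TTATGTAA was in 0.94% of all and in 3 of 128 promoters of genes peaking at ZT12, 3 of 119 at ZT18, 1 of 133 at ZT0 and 0 of 90 at ZT6. A match is a description of letters and was not tested as a binding site. All promoters include those of genes not tested here, and the share among tested genes was not computed. A higher share in called genes therefore cannot be told apart from one of genes expressed in liver. Shares count promoters, and a gene can have more than 1.

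Genes that peaked at ZT0, the start of the light phase, held members of methionine, one-carbon and glutathione metabolism. All 3 of the called members of this list, of 23 tested (13% against 4.53% of all genes), peaked there, Cbs and Gclc among them. Other ZT0 genes were Pdk4, a fasting-induced kinase that blocks pyruvate oxidation, and Insig2, an inhibitor of sterol-regulated transcription. Insig2 was 1 of 2 called genes of 26 for cholesterol synthesis and uptake (7.69%, also against 4.53%), and the other peaked at ZT18. Among the 26, 1 had its highest mean at ZT0 and 17 at ZT18, as had 2065 and 3133 of all 10026 tested genes.

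Cbs (chr17:31608894-31637238), which commits homocysteine to cysteine synthesis, had 175, 164 and 139 FPKM at ZT0, 101, 112 and 111 at ZT6, and 60 to 93.5 at ZT12 and ZT18 (2.30-fold, limma adjusted p = 0.0176). Gclc, the catalytic subunit of the first enzyme of glutathione synthesis, was at 76.1, 98.3 and 117 FPKM at ZT0 and at 23.1, 25.1 and 23.7 at ZT12 (3.88-fold, limma adjusted p = 0.0196). Its ZT0 and ZT6 values overlapped.

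Chka, choline kinase alpha of phosphatidylcholine synthesis, had 42.8, 141 and 48.6 FPKM at ZT0 and 43.8, 19 and 20.1 at ZT18. It was between 2.59 and 8.05 in all ZT6 and ZT12 libraries, which did not overlap the other times (10.7-fold, limma adjusted p = 0.0174). The highest value, 141, came from the ZT0 replicate that stood apart. Eps8l2, a regulator of actin, had 20.9, 20.5 and 19.7 FPKM at ZT0 against 4.87, 4.96 and 2.74 at ZT12, with ZT6 and ZT18 between (4.21-fold, limma adjusted p = 0.00537). Spon2, an extracellular matrix protein, was at 5.97, 10.2 and 13.6 FPKM at ZT0 and at 0.625, 0.606 and 1.31 at ZT12 (5.73-fold, limma adjusted p = 0.00879).

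Pdk4 stood at 5.09, 6.74 and 12.2 FPKM at ZT0 and 6.48, 3.55 and 3.26 at ZT18, with ZT6 and ZT12 at no more than 2.46 (4.19-fold, limma adjusted p = 0.0189). It was the only called gene of 30 tested for fat oxidation and ketogenesis, 3.33%, which is near the 4.53% of all genes. Among the 30, 3 had their highest mean at ZT0 and 20 at ZT6, as had 2065 and 2294 of all 10026 tested genes. Insig2 had 90.9, 87.1 and 140 FPKM at ZT0 and 20.9, 43.7 and 27.5 at ZT12 (3.45-fold, limma adjusted p = 0.0296). Cdkn1a, the cell cycle inhibitor p21, was at 5.84, 20.4 and 7.71 FPKM at ZT0 and at no more than 2.25 elsewhere (5.67-fold, limma adjusted p = 0.0245). The value of 20.4 again belonged to ZT0 replicate 2, without which the adjusted p was 0.022. Loxl4, singled out above, had 1.38, 2.48 and 2.14 FPKM at ZT0 and at most 0.351 in any other library (limma adjusted p = 0.00537).

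At ZT6, the middle of the light phase, the 84 called genes were led by the clock genes Nr1d1, Dbp and Nr1d2. No gene list other than the receptors and Kupffer cell markers had more than 1 called member with a ZT6 peak. Crot (chr5:8966033-8997324), a peroxisomal carnitine acyltransferase, had 158, 331 and 325 FPKM at ZT6, 162, 228 and 223 at ZT0, 49.0, 52.1 and 49.4 at ZT12, and 77.5, 119 and 75.0 at ZT18. ZT0 and ZT6 overlapped and both exceeded the dark-phase times (4.47-fold, limma adjusted p = 0.0104). Casp6, an executioner caspase, was at 17.9, 19.3 and 19.9 FPKM at ZT6 and at 3.51, 7.02 and 4.24 at ZT18, with ZT0 and ZT12 between 7.49 and 10.3 (3.43-fold, limma adjusted p = 0.0144).

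Serpina7, the thyroxine-binding globulin gene on the X chromosome, had 71.3, 41.8 and 40.5 FPKM at ZT6 and 12.0, 4.31 and 9.77 at ZT18 (6.10-fold, limma adjusted p = 0.0374). Ulk1, the kinase that starts autophagy, had 13, 10.3 and 9.74 FPKM at ZT6 and 5.02, 5.5 and 6.65 at ZT18, with ZT12 overlapping ZT6 (1.86-fold, limma adjusted p = 0.0228). It was the 1 called gene of 29 for autophagy and lysosomes, 3.45%, which is near the 4.53% of all genes. Cyp2c38, a drug-metabolizing P450 gene with close paralogs between which reads may be split, was at 12.3, 13.1 and 13.8 FPKM at ZT6 and 5.16, 4.47 and 3.85 at ZT18 (2.54-fold, limma adjusted p = 0.0296).

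Macrophage markers were lowest at ZT18. Of 12 Kupffer cell and macrophage markers, 3 were called (25% against 4.53% of all genes): Marco and Cd5l with a ZT6 peak and Clec4f with a ZT12 peak. Marco, a scavenger receptor, had 10.1, 3.60 and 3.86 FPKM at ZT6 and 0.679, 0.337 and 1.47 at ZT18 (4.10-fold, limma adjusted p = 0.0425). Cd5l, a secreted macrophage survival factor, was at 22.2, 32.8 and 32.4 FPKM at ZT6 and 5.65, 7.97 and 10.5 at ZT18 (3.17-fold, limma adjusted p = 0.0249). The 12 markers together summed to 59.8, 91.1 and 98.5 FPKM at ZT18, below each of the 9 other libraries, which ran from 111 to 237. The median difference of the 12 markers was 0.85 log2 lower at ZT18 than at ZT6, against 0.04 higher over all tested genes. The number of markers called was 9 without ZT0 replicate 2, where 504 of all 9861 tested genes were called. It was 8 with 12 separate libraries, which called 14.4% of all genes. It was 0 or 1 without ZT0 replicate 3 or any ZT12 or ZT18 replicate, where 103 to 283 of all genes were called. Slc40a1, the iron exporter ferroportin, which macrophages also carry, had 28.4, 34.0 and 33.3 FPKM at ZT6 and 11.6, 13.3 and 13.3 at ZT18 (2.33-fold, limma adjusted p = 0.0363). The part of the macrophage markers in that difference was not tested.

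At ZT12, the start of the dark phase, most called genes of the lipogenesis, glucose and amino acid lists had their highest mean. All 3 called genes of 18 for de novo lipogenesis peaked there (16.7% against 4.53% of all genes), as did 4 of 5 called genes of 19 for glucose and glycogen (26.3%) and 4 of 5 called genes of 28 for amino acid breakdown and the urea cycle (17.9%). Among all tested members, 15 of 18, 11 of 19 and 14 of 28 had their highest mean at ZT12, as had 2534 of all 10026 tested genes. At ZT18 the numbers were 2, 2 and 10, and 3133 of all tested genes. Between ZT0 and ZT12, 5 of 18 lipogenic genes, 6 of 19 glucose and glycogen genes and 10 of 28 amino acid genes rose, against 5.07% of all genes. The median difference of those lists was 1.19, 0.90 and 0.48 log2, against 0.03 for all tested genes. On the values as deposited 5, 5 and 4 of them rose, against 183 of all 10072 tested genes. The fits without any one ZT12 replicate or ZT18 replicate 3 called 103 to 139 of all genes by the limma F test. In them no lipogenic gene, 1 or 2 glucose genes and 1 or 2 amino acid genes stayed called. With 12 separate libraries, which called 14.4% of all genes, the number was 7, 8 and 9.

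**Figure D3:**
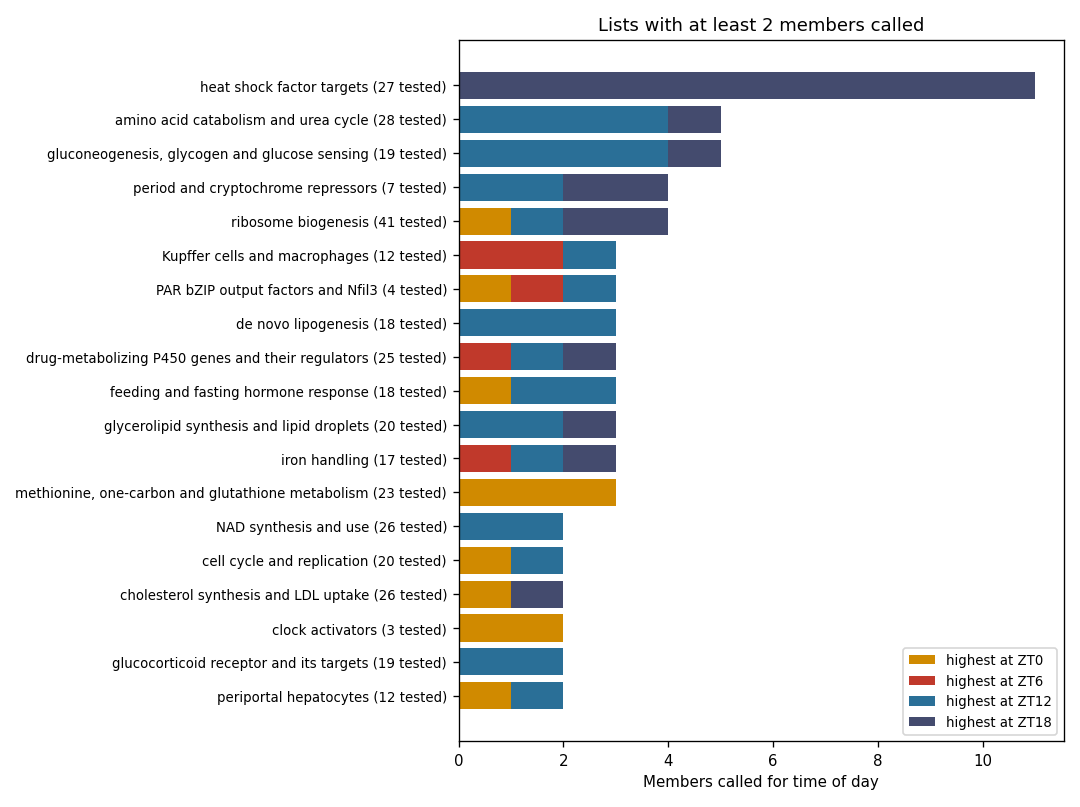
Number of members called by the limma F test (x axis) for gene lists with at least 2 called members, the clock receptors left out (y axis, with the number tested), coloured by the time of the highest mean. The 11 called heat shock factor targets all have their highest mean at ZT18, and the 3 called lipogenic genes at ZT12.

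The ZT0 samples that form the low end of these comparisons also had the lowest sums of pericentral hepatocyte markers, at 3547, 541 and 2672 FPKM against 3975 to 6554 in the other 9 libraries. No pericentral marker was called by the limma F test, and 3 had an unadjusted p under 0.05. The part of this difference in the ZT0 to ZT12 changes was not tested. Without ZT0 replicate 2, which had the sum of 541, Thrsp, Lpin1, Gys2 and Asl were among the 70 named genes still called. The calls of Elovl6 (limma adjusted p = 0.0554), Nmrk1 (0.0587), Nfil3 (0.0548), Hsph1 (0.0508), Syvn1 (0.0524) and Clec4f (0.0529) were lost.

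Lpin1 (chr12:16535669-16610966), which makes the diacylglycerol used for triglyceride, was high at ZT12 alone. It had 52.1, 80.1 and 84.0 FPKM at ZT12. It was at 3.19, 2.11 and 3.31 at ZT0, 17.2, 4.81 and 4.40 at ZT6, and 8.11, 5.92 and 10.9 at ZT18. No other library came within the ZT12 range, and the change of 4.22 ± 0.39 log2 (SE), or 18.7-fold, had a limma adjusted p of 0.00537. Thrsp (chr7:97412938-97417730), a carbohydrate-induced regulator of lipogenesis, had 3025, 3127 and 3237 FPKM at ZT12 and 2459, 836 and 2465 at ZT18. It stood at 236, 21.5 and 129 at ZT0 and at 333, 66.7 and 61.4 at ZT6. All ZT12 and ZT18 libraries lay above all ZT0 and ZT6 libraries (35.4-fold from ZT0 to ZT12, limma adjusted p = 0.0217). Elovl6, a fatty acid elongase, had 84.5, 63.6 and 127 FPKM at ZT12 and 12.5, 7.11 and 10.1 at ZT0 (8.37-fold, limma adjusted p = 0.0385). At ZT18 it was at 75.3, 14.0 and 71.6, so that ZT18 replicate 2 was low for Elovl6 as for Thrsp.

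Aacs, which activates acetoacetate for lipid synthesis, was at 36.0, 48.5 and 55.8 FPKM at ZT12 and 10.7, 4.69 and 4.60 at ZT6 (5.79-fold, limma adjusted p = 0.0244). Fasn, fatty acid synthase, missed the F test (adjusted p = 0.0628), although its ZT0 to ZT12 contrast of 1.91 log2 passed (limma adjusted p = 0.0469). The gluconeogenic gene Pck1 (adjusted p = 0.0642) missed the F test as well. Agpat6, a glycerol-3-phosphate acyltransferase, was at 32.9, 41.3 and 33.3 FPKM at ZT12 against 18.7, 16.1 and 14.8 at ZT0, the other times lying between (2.1-fold, limma adjusted p = 0.0206). Agpat2, of the next step, peaked at ZT18 (2.15-fold, limma adjusted p = 0.0425).

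**Figure D4:**
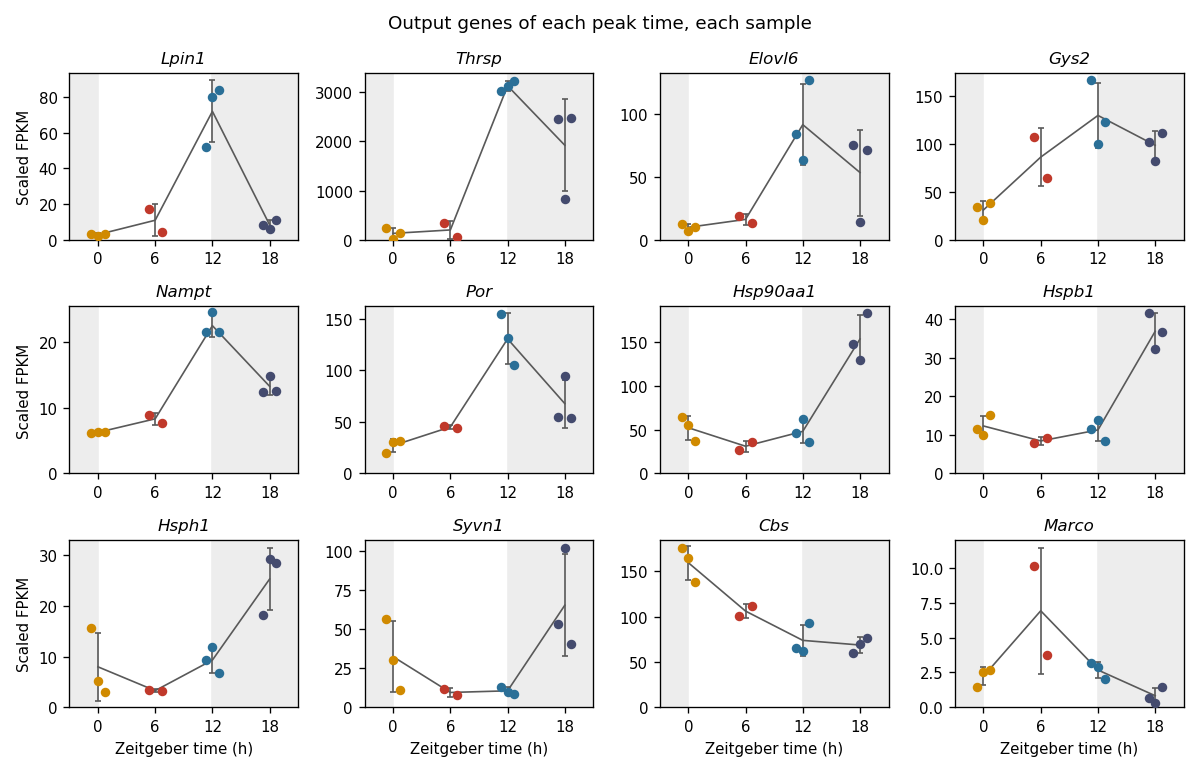
Rescaled FPKM (y axis, linear, 1 scale per gene) against Zeitgeber time in h (x axis) for 12 genes outside the core clock, with grey for the dark phase. Points are the 11 samples, ZT6 replicates 2 and 3 being shown as their mean, and lines and bars are means and SD. Lpin1 is at 52.1 to 84.0 FPKM at ZT12 and at or below 17.2 in every other library, and Hspb1 and Hsp90aa1 are high at ZT18 alone.

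Of the glucose and glycogen list, Gys2, the liver glycogen synthase, had 167, 99.6 and 123 FPKM at ZT12 and 34.1, 21 and 38.4 at ZT0. All ZT0 libraries were below every other, and ZT6, ZT12 and ZT18 overlapped (4.10-fold, limma adjusted p = 0.0161). Slc37a4, which carries glucose-6-phosphate into the endoplasmic reticulum, was at 129, 108 and 106 FPKM at ZT12 and 43.9, 12.4 and 36.8 at ZT0 (4.05-fold, limma adjusted p = 0.0387). Pfkfb3 and Pfkfb1, which set the level of the glycolytic activator fructose-2,6-bisphosphate, changed 4.04-fold (limma adjusted p = 0.0174) and 2.32-fold (limma adjusted p = 0.0284). Ppp1r3b, which brings a phosphatase to glycogen, peaked at ZT18 with 95.2, 107 and 103 FPKM against 14.6, 9.69 and 9.61 at ZT6 (7.96-fold, limma adjusted p = 0.0385). Slc2a4, singled out above, had 3.77, 5.01 and 5.92 FPKM at ZT12 and at most 1.88 elsewhere (limma adjusted p = 0.0126).

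In amino acid use, Asl, the urea cycle's argininosuccinate lyase, had 586, 562 and 511 FPKM at ZT12 and 538, 580 and 502 at ZT18. It was at 215, 177 and 223 at ZT0 and 287, 140 and 140 at ZT6, so that the dark-phase libraries all exceeded the light-phase ones (2.74-fold, limma adjusted p = 0.0132). The transaminase gene Got1 stood apart at ZT12, at 165, 184 and 238 FPKM against 48.3 to 124 in all others (3.48-fold, limma adjusted p = 0.0189). Sds, serine dehydratase, had 253, 222 and 317 FPKM at ZT12 and 52.7, 56.2 and 45.8 at ZT18 (5.01-fold, limma adjusted p = 0.0385). Gpt, alanine transaminase, changed 1.76-fold (limma adjusted p = 0.0245).

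Nampt (chr12:32819545-32853349), the rate-limiting enzyme of NAD salvage, had the smallest p of the metabolic genes named here. It had 21.6, 24.6 and 21.5 FPKM at ZT12, 12.5, 14.8 and 12.6 at ZT18, 8.98, 7.82 and 7.57 at ZT6, and 6.14, 6.34 and 6.32 at ZT0. The 4 times did not overlap, and the change of 1.69 ± 0.11 log2 (SE) had a limma adjusted p of 0.00149. Nmrk1, another NAD salvage gene, was called with a ZT12 peak (2.55-fold, limma adjusted p = 0.0476), which made 2 called genes of 26 for NAD (7.69% against 4.53% of all genes).

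Genes of the heme and P450 lists are given next, and not all of them peaked at ZT12. Alas1, the rate-limiting enzyme of heme synthesis, had 162, 372 and 175 FPKM at ZT12 and 42.3, 14.3 and 14.2 at ZT6 (8.58-fold, limma adjusted p = 0.0283). Por, the reductase that feeds electrons to P450 enzymes, was at 155, 132 and 105 FPKM at ZT12, above every other library, and 19.6, 30.4 and 31.3 at ZT0 (4.72-fold, limma adjusted p = 0.0103). Cyp2a5, the mouse coumarin hydroxylase, peaked at ZT18 with 375, 422 and 386 FPKM, which overlapped 393, 352 and 418 at ZT12. It was at 161, 190 and 189 at ZT6 and 42.9, 139 and 43.4 at ZT0 (6.08-fold, limma adjusted p = 0.0144). It has near-identical paralogs, so reads may have been shared with them. Of 25 tested P450 genes and regulators, 3 were called (12% against 4.53% of all genes), 1 each with a peak at ZT6, ZT12 and ZT18. Among the 25, 15 had their highest mean at ZT18 and 5 at ZT12, as had 3133 and 2534 of all 10026 tested genes.

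Further ZT12 genes had various functions. Upp2, uridine phosphorylase, had 216, 227 and 266 FPKM at ZT12 and 28.8, 34.7 and 21.2 at ZT0 (8.24-fold, limma adjusted p = 0.0104). Rgs16, a brake on G-protein signalling, was high in both ZT6 and ZT12, with 80.2, 68.2 and 68.0 and then 72.8, 86.3 and 72.9 FPKM, against 1.67, 0.786 and 17.5 at ZT0 and 8.69, 1.45 and 2.84 at ZT18 (17.6-fold, limma adjusted p = 0.0202). Hamp2, a paralog of the iron hormone hepcidin with which it may share reads, had 417, 490 and 882 FPKM at ZT12 and 137, 54.5 and 78.4 at ZT0 (6.68-fold, limma adjusted p = 0.0161).

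Lepr, the leptin receptor, was at 5.67, 5.07 and 4.28 FPKM at ZT12 and at 2.75 or less in all other libraries (3.21-fold, limma adjusted p = 0.0228). Wee1, the mitotic inhibitor kinase, rose from 0.342, 0.782 and 0.615 FPKM at ZT0 to 3.04, 2.23 and 2.54 at ZT12 (2.29-fold, limma adjusted p = 0.00887). Zbtb16, a glucocorticoid-induced factor, was at 2.73, 2.12 and 1.76 FPKM at ZT12 and at 1.13 or less elsewhere (2.46-fold, limma adjusted p = 0.0161). Serpina6, which encodes the corticosteroid carrier of blood, changed 2.38-fold (limma adjusted p = 0.0308). Those were the 2 called genes of 19 for the glucocorticoid response (10.5% against 4.53% of all genes).

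At ZT18, the middle of the dark phase, the chaperones were highest. Of 27 tested heat shock factor targets, 11 were called (40.7% against 4.53% of all genes) and every one of them peaked at ZT18. Between ZT6 and ZT18, 12 of the 27 rose and none fell, against 1.5% and 1.03% of all tested genes. The median ZT18 minus ZT6 difference of the 27 was 1.03 log2, against 0.04 for all tested genes. The count was 16 without ZT0 replicate 1, 8 without either other ZT0 replicate, 5 without ZT6 replicate 1, 5, 3 and 5 without each ZT12 replicate in turn, and 4, 5 and 2 without each ZT18 replicate. Those fits called 103 to 800 of all genes. It was 5 on the values as deposited, which called 390 of all 10072 tested genes. With 12 separate libraries, which called 14.4% of all genes, the count was 18.

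Hspb1 (chr5:135887919-135889563), the small heat shock protein HSP27, had 41.6, 32.3 and 36.5 FPKM at ZT18. It was between 7.78 and 15.2 in the 9 other libraries, and changed by 2 ± 0.22 log2 (SE), or 4-fold, with a limma adjusted p of 0.00579. Hsp90aa1 (chr12:110690605-110702728), the inducible HSP90, had 148, 129 and 182 FPKM at ZT18 and 26.4 to 64.1 in all other libraries (4.81-fold, limma adjusted p = 0.0104). Hsph1, the nucleotide exchange partner HSP110, had 18.2, 29.3 and 28.4 FPKM at ZT18 and 3.44, 2.90 and 3.34 at ZT6 (6.03-fold, limma adjusted p = 0.0439).

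Hspa8, the constitutive HSC70 chaperone, was at 1512, 1437 and 1387 FPKM at ZT18. It was at 842, 832 and 628 at ZT12, 413, 268 and 266 at ZT6, and 650, 332 and 229 at ZT0, so ZT18 was above every other library (4.34-fold, limma adjusted p = 0.0245). The HSP90 co-chaperones moved with it: Fkbp4 had 112, 96.3 and 122 FPKM at ZT18 against 37.7, 39.8 and 40.4 at ZT6 (2.78-fold, limma adjusted p = 0.0194). Stip1 had 46.1, 40.7 and 58.3 FPKM at ZT18 against 13.8, 14.8 and 15 at ZT6 (3.19-fold, limma adjusted p = 0.0205). Ahsa1 changed 2.04-fold (limma adjusted p = 0.0196) and the mitochondrial co-chaperonin Hspe1 1.65-fold, from 173, 203 and 184 FPKM at ZT0 to 324, 275 and 325 at ZT18 (limma adjusted p = 0.0407). Its partner Hspd1 was not called (adjusted p = 0.201). In Hsph1, ZT0 replicate 1 lay above the other ZT0 replicates, at 15.7 against 5.16 and 3.08 FPKM.

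**Figure D5:**
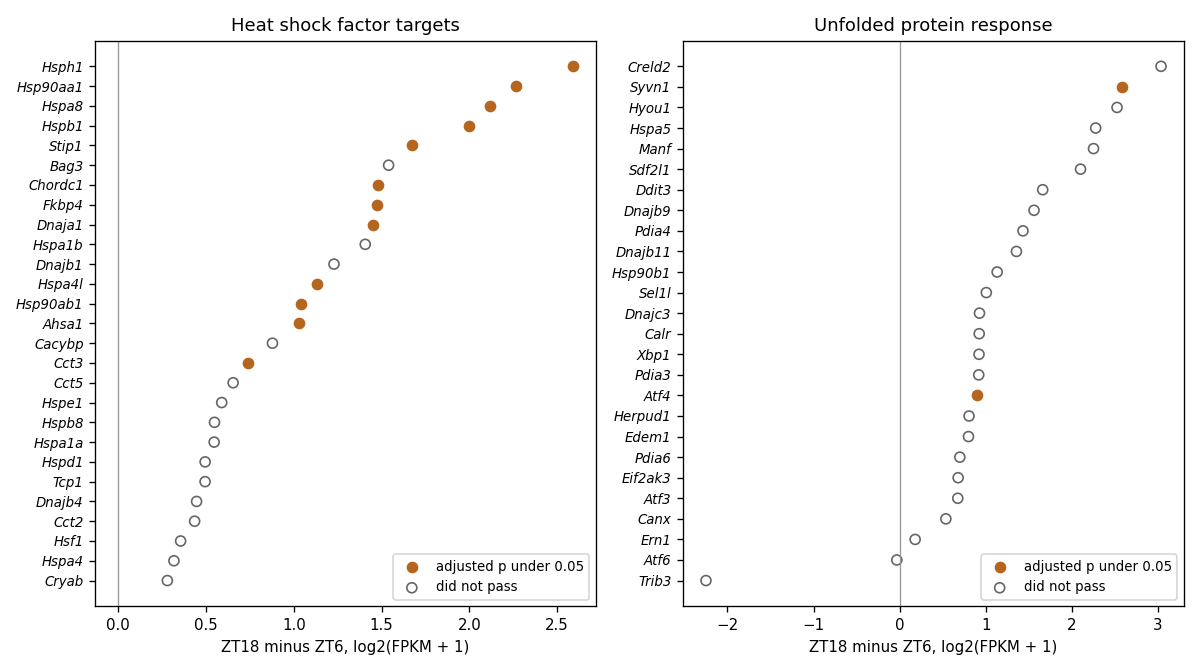
Difference of mean log2(FPKM + 1) between ZT18 and ZT6 (x axis) for each tested heat shock factor target (left) and unfolded protein response gene (right). Filled points passed the ZT6 against ZT18 contrast at an adjusted p under 0.05, and the open points did not. All 27 points on the left lie above 0, up to 2.59 for Hsph1.

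The stress genes of the endoplasmic reticulum were also mostly highest at ZT18. Of 26 tested genes of the unfolded protein response, 22 had their highest mean at ZT18, as had 3133 of all 10026 tested genes, and 1 was called, a share of 3.85% near the 4.53% of all genes. At an unadjusted p under 0.05 there were 16 of the 26, as were 2790 of all 10026 tested genes. With 12 separate libraries, which called 14.4% of all genes, 11 were called. The called gene was Syvn1, the ubiquitin ligase HRD1, with 53.4, 102 and 40.1 FPKM at ZT18 and 11.3, 7.36 and 7.74 at ZT6 (5.97-fold, limma adjusted p = 0.0474). Its ZT0 values were 56.0, 29.9 and 10.9, so ZT0 replicate 1 reached the ZT18 range. Hspa5, the chaperone BiP, was at 427, 957 and 529 FPKM at ZT18, 135, 112 and 113 at ZT6, 197, 190 and 194 at ZT12, and 546, 282 and 104 at ZT0 (adjusted p = 0.0893, not called). Creld2, a secreted stress marker, ran from 8.62 to 8.94 FPKM at ZT6 and 55.6 to 135 at ZT18, with 51.2, 16.9 and 5.13 at ZT0 (adjusted p = 0.0593, not called). The median ZT18 minus ZT6 difference of the 26 genes was 0.93 log2, against 0.04 for all tested genes. The count of called genes was 13 without ZT0 replicate 1, where 800 of all 9987 tested genes were called. It was 12 without ZT0 replicate 3, where 283 of 9932 were called. It was 0 or 1 when any other library was left out, where 103 to 504 of all genes were called.

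Promoter stretches of 3 of these genes are shown as examples of the elements that stress factors read, because the heat shock and endoplasmic reticulum genes shown had their highest means at ZT18. In Hspe1 (chr1:55088039-55088096, plus strand) 2 overlapping matches to the heat shock element, searched on both strands as GAA, TTC and GAA with 2 bases between neighbours, are in capitals. Syvn1 (chr19:6046512-6046570, plus strand) and Creld2 (chr15:88819500-88819558, plus strand) hold the endoplasmic reticulum stress element, searched as CCAAT and CCACG with 9 bases between them, in Creld2 as its reverse complement.
Hspe1: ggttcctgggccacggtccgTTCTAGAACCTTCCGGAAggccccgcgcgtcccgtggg
Syvn1: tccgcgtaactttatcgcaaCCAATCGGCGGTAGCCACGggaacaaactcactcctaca
Creld2: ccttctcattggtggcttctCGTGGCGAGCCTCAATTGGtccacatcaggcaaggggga
The heat shock element was in 0.6% of all 32851 promoters, which again include those of genes not tested. It was in 6 of 119 promoters of called genes peaking at ZT18 (5.04%), 2 of 128 at ZT12, 1 of 133 at ZT0 and 0 of 90 at ZT6. Hsph1 and Chordc1 of the heat shock list held it too, Hsph1 at more than 1 start site. The promoter window of Hspd1, on the opposite strand, overlaps that of Hspe1, and its matches are the same bases as those printed for Hspe1. The stress element of the endoplasmic reticulum was in 0.12% of all promoters, in 1 of 119 at ZT18 and in 0 of those at the other times. It was also found in Hspa5, Hsp90b1, Calr, Canx, Pdia6 and Dnajc3 of the unfolded protein response list, which were not called.

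Other genes that peaked at ZT18 were Eif4ebp3, Cml5 and Tfrc. Eif4ebp3, a repressor of cap-dependent translation, had 101, 213 and 99.5 FPKM at ZT18 and 88.4, 124 and 67.4 at ZT12. It was between 9.32 and 20.4 at ZT0 and ZT6, a gap with no overlap (8.48-fold, limma adjusted p = 0.00606). It was the only called gene of 27 for translation and mTOR signalling, 3.7%, which is near the 4.53% of all genes. Cml5, an N-acetyltransferase-like gene, had 79.0, 50.8 and 77.6 FPKM at ZT18 against 9.31, 6.38 and 5.66 at ZT6, with every ZT18 library on top (8.09-fold, limma adjusted p = 0.00537). Tfrc, the transferrin receptor for iron uptake, was at 8.38, 8.26 and 7.67 FPKM at ZT18 and 1.67, 1.5 and 1.36 at ZT6 (3.57-fold, limma adjusted p = 0.0267). The iron list had 3 called genes of 17 (17.6% against 4.53% of all genes), 1 each with a peak at ZT6, ZT12 and ZT18.

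Tsku, a secreted liver protein, changed 15.6-fold between ZT6 and ZT18 (limma adjusted p = 0.0415), but its ZT12 values ran from 13.9 to 80.4 FPKM. Sult1d1, a sulfotransferase, rose from 36.3, 24.7 and 29.4 FPKM at ZT0 to 76.5, 108 and 78.2 at ZT18 (2.84-fold, limma adjusted p = 0.0131). It was the only called gene of 33 for phase II conjugation, 3.03%, which is near the 4.53% of all genes. Of 41 ribosome biogenesis genes 4 were called (9.76% against 4.53% of all genes), 2 of them with a ZT18 peak, a time at which 1.18% of all genes were called. They were Mybbp1a (1.94-fold, limma adjusted p = 0.0385) and Polr1e (1.64-fold, limma adjusted p = 0.0447).

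Several functional lists had no calls in these samples. None of 20 tested bile acid genes, 21 apolipoprotein and VLDL genes, 28 acute phase and complement genes, 14 immediate early genes or 6 cold-inducible RNA-binding genes passed the limma F test, where 4.53% of all genes did, so that lists of this size would hold few calls at that share. At an unadjusted p under 0.05 there were 4, 1, 7, 5 and 4 genes in these lists. With the 12 libraries as separate samples, which called 14.4% of all genes, 3, 0, 4, 2 and 2 of them passed. None of the hepatocyte identity, pericentral, endothelial, stellate, cholangiocyte, lymphocyte, neutrophil or erythroid marker genes that were tested passed, and 2 of 12 periportal markers did. At an unadjusted p under 0.05 there were 3 pericentral, 4 endothelial, 4 stellate, 1 cholangiocyte and 1 erythroid markers, and 0 in the other 3 lists. With 12 separate libraries 2 endothelial, 1 cholangiocyte and 1 erythroid markers passed and 0 in the others.

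The same test in the other offspring groups shared part of this list, none of them using these libraries. In low-fat offspring of mothers whose light cycle was advanced by 8 h every 5 days in pregnancy, 985 of 10234 genes were called (9.62%). Of these, 152 were also called here, which is 33.5% of the present list and 15.4% of theirs. In high-fat offspring of control mothers 76 genes were called (0.768%), of which 47 were shared, 10.4% of the present list and 61.8% of theirs. In high-fat offspring of shifted mothers 3071 were called (30.2%), of which 321 were shared, 70.7% of the present list and 10.5% of theirs. Of the called genes also tested there, 290 of 450, 246 of 445 and 289 of 445 had their highest mean at the same time. A difference in rhythm between the groups was not tested.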

How the data were processed

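Per the submitters' processing notes, reads were aligned with TopHat2 2.1.1 and quantified with Cufflinks 2.2.1 on mm10. Neither an annotation nor a filter is named in the labels or notes. The deposited values are FPKM per gene, a unit taken from these tools and the values. Read counts were not used here, so depth per library is unknown, and the precision was judged from the spread between samples and their number. Of 24883 table entries, 817 carrying 280 repeated symbols were left out.

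FPKM values were scaled by the median of ratios within the 12 libraries, and log2(FPKM + 1) was tested in genes at 1 FPKM or more in 3 samples, using limma 3.58.1 in R 4.3.3 (intensity trend, F test on 3 degrees of freedom, threshold 0.05 after Benjamini-Hochberg adjustment, and 6 pairwise contrasts). The planned fit used 12 separate libraries. Averaging ZT6 replicates 2 and 3, below a spread of 0.1 log2, was decided after the data were seen. Replicate numbers were not used to pair libraries, since no label pairs them and not every same-numbered pair correlated above 0.1. The code was tested on simulated data.

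Named genes were all core clock genes, the 8 called genes with the largest difference at each peak time, up to 3 called members of each gene list per time, and list members that did not pass, given with values only. The other genes singled out were chosen after their values were seen. Members and lists were chosen with earlier results of these data known. Alternatives covered scaling, filter, pseudocount, trend, cosine, GC and length terms, the replicate block and each library left out. Gene positions are from GENCODE M21 (mm10) and promoters from RefSeq (GRCm38.p6). Some genes are not reported here. Figures used matplotlib 3.10.9.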

Additional observations from a re-analysis of the deposited data

How the results depend on the processing

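Called gene counts depended on sample number and filter, and their split by direction on scaling. On the values as deposited, 183 genes were higher and 626 lower at ZT12 than at ZT0, against 508 and 462 after rescaling. The split also turned to mostly lower at ZT18 in each of its pairs with ZT0, ZT6 and ZT12. Leaving out each library in turn gave 103 to 800 genes for the F test, with 32 to 229 peaking at ZT0, 14 to 115 at ZT6, 31 to 185 at ZT12 and 24 to 271 at ZT18. The pairwise counts ran from 0 to 11 for ZT0 against ZT6, 160 to 1143 for ZT0 against ZT12, 4 to 685 for ZT0 against ZT18, 0 to 108 for ZT6 against ZT12, 8 to 451 for ZT6 against ZT18, and 0 to 232 for ZT12 against ZT18. With no filter on low values, limma called 136 genes, with peaks of 41, 24, 36 and 35 in order of time, and 37 genes for ZT0 against ZT18, 5 for ZT6 against ZT12, 64 for ZT6 against ZT18 and 0 for ZT12 against ZT18 (2434 at an unadjusted p under 0.05). A minimum of 5 FPKM gave 5 genes for ZT0 against ZT6 and 79 peaking at ZT0. The values as deposited gave 241 for ZT0 against ZT18, 159 for ZT6 against ZT18 and 25 for ZT12 against ZT18, with 186 peaking at ZT0, 86 at ZT12 and 24 at ZT18. For ZT6 against ZT12 and ZT12 against ZT18, upper quartile scaling gave 25 and 19, scaling over the 48 offspring libraries 29 and 21, and no intensity trend 27 and 20. A GC and length term gave 24 for ZT6 against ZT12, and a cosine fit called 1269 genes.

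With 12 separate libraries, 1454 genes were called, peaking at 307, 311, 405 and 431 in order of time, with 41 for ZT0 against ZT6, 177 for ZT0 against ZT18, 467 for ZT6 against ZT12, 1021 for ZT6 against ZT18 and 191 for ZT12 against ZT18. Adding the replicate block to those gave 1527, peaks of 291, 345, 404 and 487, and pairwise counts of 39, 259, 539, 1180 and 213 in the same order. Same-numbered libraries at different times correlated between -0.26 and 0.56, above 0.1 in 10 of 18 pairs, and 8 of 12 libraries correlated best with their own number, a hint from the data only. The 12 libraries without ZT0 replicate 2 gave 1628 genes, peaks of 360, 378, 421 and 469, and 25 for ZT0 against ZT6, 757 for ZT6 against ZT12, 1455 for ZT6 against ZT18 and 560 for ZT12 against ZT18. Without ZT6 replicates 2 and 3, limma called 272 genes, 41 peaking at ZT6 and 52 at ZT18, with 0 for ZT0 against ZT6 (1038 unadjusted), 0 for ZT6 against ZT12 (954 unadjusted), 7 for ZT6 against ZT18 and 6 for ZT12 against ZT18. The cause of these differences was not tested, apart from fewer samples or more genes tested where the setting itself makes them so. Of 87 named genes tested, none reversed, and 33 of the 81 called ones kept their call with no filter.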
